A study of Homo sapiens with 6 samples.

Results

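Annexins are proteins that bind acidic phospholipids of membranes when calcium rises. Each has a conserved core that holds the calcium and lipid sites, and a variable N-terminal part where partner proteins, often of the S100 family, attach. In gut epithelium they take part in vesicle transport, membrane repair and the limitation of inflammation. The 10 members described here are ANXA1, ANXA2, ANXA3, ANXA4, ANXA5, ANXA6, ANXA7, ANXA10, ANXA11 and ANXA13, taken as every probe set whose annotated gene is one of these symbols. They account for 19 of the 54674 probe sets in the table, and for 10 of 19775 named genes. The family was picked because ANXA13 and ANXA1 were already known to be among the largest changes in the comparison used here. All member changes are therefore given as descriptions, without p-values, and nothing is read from the counts of members called.

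The arrays measured LS174T cells, a mucin-secreting line derived from a colon adenocarcinoma and cultured alone. The 2 groups were 3 cultures given CompE at 250 nM and 3 cultures given the vehicle DMSO, each for 48 h, with 1 Affymetrix Human U133 Plus 2.0 array per culture. CompE is widely used as a short name for Compound E, which blocks gamma-secretase, the enzyme that cuts and activates Notch receptors. The labels give only the short name.

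A known Notch target was read first, as a check of the labels. HES1, a repressor induced by Notch, had intensities of 307, 306 and 256 in CompE and 804, 872 and 756 in DMSO (limma adjusted p = 0.00198). All 12 markers of colon epithelium that were looked up lay above the level of the array's Bacillus control probe sets, an intensity of 45.7 that serves here as a measure of background. Of the markers of other cell types, 4 of 7 for fibroblasts, 2 of 6 for leukocytes and 1 of 6 for endothelium lay above it. These were COL1A1, COL1A2, DCN and LUM for fibroblasts, CD14 and CD79A for leukocytes, and PECAM1 for endothelium. PECAM1 had means of 159 in CompE and 165 in DMSO. The summed fibroblast markers ranged from 356 to 359 in CompE and from 293 to 418 in DMSO. PTPRC, the pan-leukocyte marker, and CDH5, the endothelial cadherin, were below the Bacillus control level. The 3' over 5' signal ratio of ACTB, which reflects RNA integrity and amplification, was 1.51 ± 0.0193 in CompE and 1.44 ± 0.0201 in DMSO (SD, n = 3 each; two-sided exact permutation test, p = 0.1, which is the lowest this design allows). The same ratio of GAPDH went the other way, at 0.946 ± 0.0264 in CompE and 0.968 ± 0.0106 in DMSO (exact permutation p = 0.3). The hybridisation controls were 0.14 log2 units brighter in CompE (exact permutation p = 0.1). The part of these quality differences in the results below was not tested, except that centring on the hybridisation controls was tried.

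Promoter windows of the 9 members other than ANXA13 were searched, 13 windows in all as some genes have several starts, and those of ANXA1 and ANXA2 are shown because ANXA1 was the member with the largest decrease and ANXA2 was lower in CompE on all 4 of its probe sets. Each runs 5′ to 3′ on the strand of the gene, from 250 bases before the annotated start to 50 bases from it, in RefSeq's GRCh38.p14. Capitals mark matches to motifs that were searched on both strands. The ANXA1 window is chr9:73151615-73151914, on the plus strand, and the ANXA2 window is chr15:60397937-60398236, on the minus strand.
ANXA1: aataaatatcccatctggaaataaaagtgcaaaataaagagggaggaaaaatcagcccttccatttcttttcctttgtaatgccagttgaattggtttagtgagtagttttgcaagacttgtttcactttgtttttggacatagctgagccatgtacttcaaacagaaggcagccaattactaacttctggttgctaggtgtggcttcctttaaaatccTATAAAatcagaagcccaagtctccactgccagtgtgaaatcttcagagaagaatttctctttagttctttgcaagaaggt
ANXA2: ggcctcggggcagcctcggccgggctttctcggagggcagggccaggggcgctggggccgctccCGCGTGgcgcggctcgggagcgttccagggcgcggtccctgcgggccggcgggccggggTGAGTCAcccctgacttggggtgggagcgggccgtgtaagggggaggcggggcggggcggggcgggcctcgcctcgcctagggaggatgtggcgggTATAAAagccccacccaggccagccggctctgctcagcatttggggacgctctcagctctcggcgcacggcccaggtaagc
In both windows the capitals TATAAA begin 31 bases before the start. This TATA motif was found in 4 of the 13 windows (1 each of ANXA1, ANXA2, ANXA10 and ANXA11) and in 11.5% of all 35116 promoter windows of this length. The ANXA2 window also holds TGAGTCA, a match to the AP-1 motif TGANTCA, which was found in no other window of the 13 and occurs in 7.71% of all windows. The capitals CGCGTG mark a reverse-strand match to the HES-type motif CACGNG, found in 5 of the 13 windows (of ANXA2, ANXA4, ANXA6 and ANXA11) and in 30.5% of all windows. The letters TGGGAA, the core bound by the Notch cofactor RBPJ, were in neither window. Of the 13 windows 1 holds them, a window of ANXA6, against 24.0% of all windows. CAGCTG, an E-box of the kind that ATOH1 binds, was in 2 of the 13 windows, of ANXA4 and ANXA5, and in 17.9% of all windows. These matches describe letters in short windows. In these data no binding was measured.

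ANXA13, first described as an intestine-specific annexin and linked to transport toward the apical membrane, was the member with the highest rise. Its 1 probe set had intensities of 201, 240.0 and 183 in the CompE cultures, against 43.9, 49.6 and 46.15 in the DMSO cultures. Every CompE array was far above every DMSO array, and the DMSO values lay around the Bacillus control level of 45.7. The means were 208 ± 29.1 in CompE and 46.6 ± 2.89 in DMSO (SD, n = 3 each), a log2 change of 2.15 ± 0.11 (SE) or 4.44-fold. Because the DMSO level was near background, this fold can understate the true one. The log2 change was the third highest of the 14308 genes tested.

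ANXA1, the glucocorticoid-induced annexin that acts on formyl peptide receptors and limits inflammation, went the other way. Its brighter probe set had intensities of 200.5, 206 and 165 in CompE, against 594, 546 and 488 in DMSO. No CompE array came near the DMSO arrays. The means were 190.5 ± 22.7 in CompE and 543 ± 52.7 in DMSO, with a log2 change of -1.51 ± 0.12 (2.85-fold lower). It was the eighth lowest log2 change of all genes tested. As RNA was taken from whole cultures, fewer cells with the transcript and less of it per cell cannot be told apart, here and for the other genes. The gene's second probe set had intensities between 3.28 and 14.4, below the filter on dim probe sets, and gave no usable value.

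**Figure D1:**
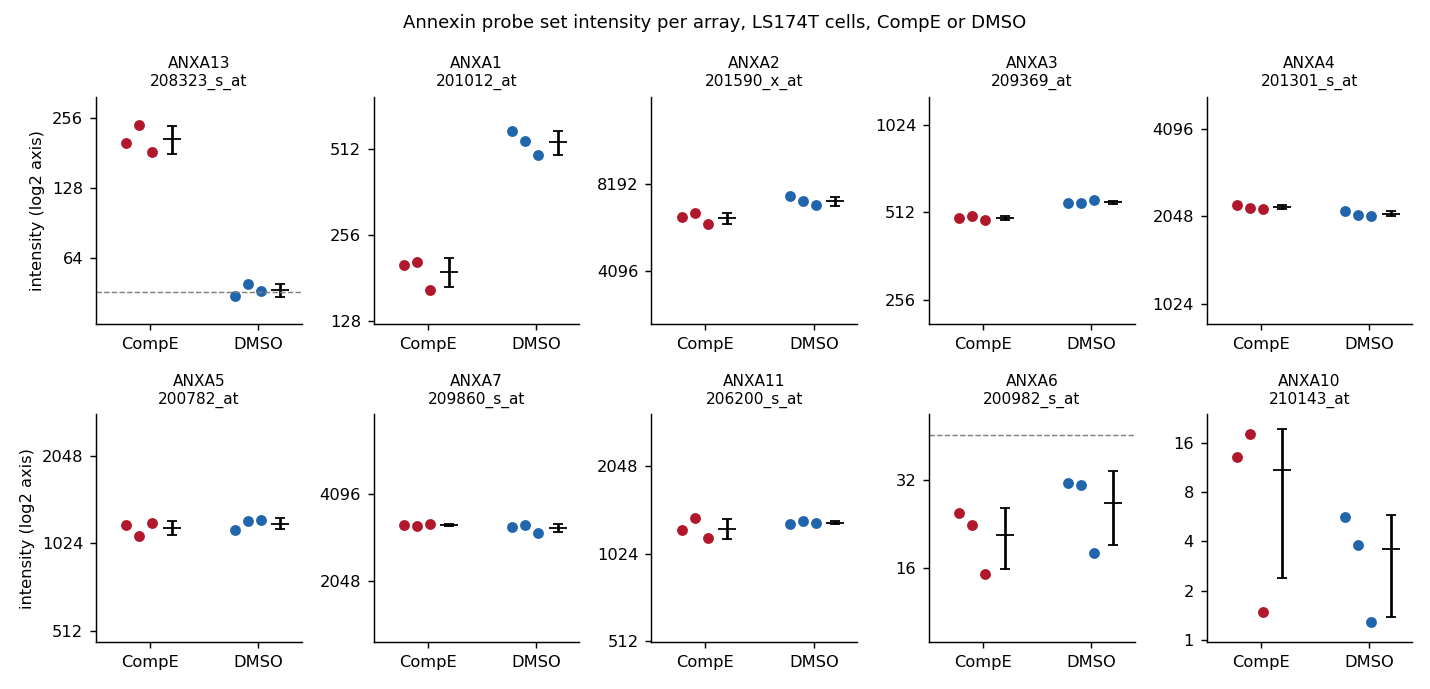
Intensity of 1 probe set per annexin member on each array (log2 axis), with CompE left of DMSO. Points are cultures, black marks are the mean ± SD (n = 3), and the dashed line, where in range, is the Bacillus control level of 45.7. ANXA13 stands at 183 to 240.0 in CompE and at 43.9 to 49.6 in DMSO, ANXA1 at 165 to 206 in CompE and at 488 to 594 in DMSO, and the other panels show smaller differences or dim signal.

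The other members differed little between the groups. In the fit over all genes, 8 members were bright enough to be tested. Of these, 1 was called higher (ANXA13), where 4.56% of all genes were, and 1 was called lower (ANXA1), where 2.57% of all genes were (7.14% in either direction). The groups did not overlap for 5 of the 8, against 32.2% of all genes. Since the members were chosen on this contrast, nothing is read from these shares. The median size of change over all genes was 0.12 log2 units, and 4 of the 8 members exceeded it. The spread within groups ranged from 0.02 to 0.16 log2 units over the 8, with the highest values in ANXA1 and ANXA13, beside a median of 0.10 over all genes.

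ANXA2, which forms a complex with S100A10 at the plasma membrane and binds plasminogen activators, was slightly lower. Its brightest probe set had intensities of 6272, 6479 and 5943 in CompE and 7410.0, 7119.6 and 6907 in DMSO. All 3 CompE arrays lay under all 3 DMSO arrays, by a small margin. The log2 change was -0.20 ± 0.06. A pair of further bright probe sets gave -0.18 and -0.20. These probe sets carry the suffix that Affymetrix gives to probes that can also bind other transcripts. The last and dim ANXA2 probe set had intensities of 32.4, 32.7 and 22.8 in CompE and 51.2, 45.8 and 47.1 in DMSO. Its log2 change was -0.73 ± 0.15, but CompE lay below the Bacillus control level there, and DMSO only 1.05-fold above it.

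Other genes with annexin symbols are not members and were tested where bright enough. Of 4 in the list fixed for them, 0 rose, 2 fell and 2 did not pass, and the 2 that fell are pseudogenes of ANXA2. Over all genes, 4.56% were called higher and 2.57% lower. The list was chosen with earlier results of these data known, so nothing is read from its counts. ANXA2P1 had intensities of 175, 189 and 153 in CompE and 235, 252 and 231 in DMSO, a fall of 1.39-fold (log2 change -0.48 ± 0.09, limma adjusted p = 0.0360). ANXA2P2 had 3607, 3978 and 3485 in CompE and 4621, 4531 and 4529 in DMSO, a fall of 1.24-fold (-0.31 ± 0.06, adjusted p = 0.0470). These sequences are near-copies of the ANXA2 transcript, so that signal of the gene and of its pseudogenes cannot be told apart on the array. All 6 probe sets past the filter that are annotated to ANXA2, ANXA2P1 or ANXA2P2 alone were lower in every CompE array than in any DMSO array. Over all genes, the groups did not overlap for 32.2%, in either direction. As the 6 can read the same transcript, they are not separate observations. They include the dim ANXA2 probe set, where CompE lay below the Bacillus control level. A further probe set, shared by SNU13 and ANXA2 in the annotation and not tested, had 3358, 3609 and 3291 in CompE and 3764, 3741 and 3563 in DMSO, where the groups overlapped. ANXA2P3 was not above background, with means of 3.55 in CompE and 6.61 in DMSO. The call of ANXA2P1 ended on leaving out any single array (highest adjusted p 0.114), and that of ANXA2P2 ended in 5 of 6 cases, all but without CompE replicate 2 (highest 0.151, without CompE replicate 1). ANXA9, an annexin whose core has lost calcium-binding residues, had log2 changes of -0.19 and -0.23 on its 2 probe sets and did not pass (adjusted p = 0.129). ANXA2R, named as a receptor for ANXA2, had -0.16 (adjusted p = 0.209). ANXA2R-OT1 and ANXA2R-AS1, non-coding transcripts named for it, had -0.04 and 0.01 (adjusted p = 0.908 and 0.973). The probe sets of ANXA8 are shared with its copy ANXA8L1 and were dim, with means of 15.2 and 18.0 in CompE and 22.9 and 27.9 in DMSO.

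ANXA3 was found in early work to act on inositol phosphate metabolism, and it also was lower by a small amount. Its intensities were 489, 496 and 481 in CompE and 551, 552 and 564 in DMSO. The groups did not overlap and the arrays of each group lay close together, with a log2 change of -0.19 ± 0.04.

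ANXA4 is an epithelial annexin found near apical and secretory granule membranes. It had intensities of 2247, 2188 and 2179 in CompE and 2141, 2079 and 2055 in DMSO. CompE was higher with no overlap, yet the log2 change of 0.08 ± 0.05 was small. The second ANXA4 probe set gave the same 0.08, again with no overlap.

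The remaining bright members had groups that overlapped, with small differences. ANXA5, the phosphatidylserine binder used to stain apoptotic cells, had a log2 change of -0.05 ± 0.07. ANXA7, or synexin, which promotes the fusion of secretory granules, had changes of 0.04 ± 0.05 and -0.01 on its 2 probe sets. ANXA11, which takes part in cytokinesis and couples RNA granules to lysosomes, had -0.07 ± 0.07 and -0.02 on the 2 of its 3 probe sets that passed the filter.

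ANXA6 and ANXA10 were not above background. ANXA6, a scaffold for PRKCA at membranes, had intensities of 24.7, 22.5 and 15.3 in CompE and 31.4, 31.0 and 18.0 in DMSO on its brighter probe set. ANXA10, an annexin of gastric epithelium, had 13.1, 18.1 and 1.49 in CompE and 5.67, 3.79 and 1.29 in DMSO. All these values are under the Bacillus control level, so no fold is given. In all, 5 member probe sets lay below the filter, with intensities between 1.29 and 44.4.

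**Figure D2:**
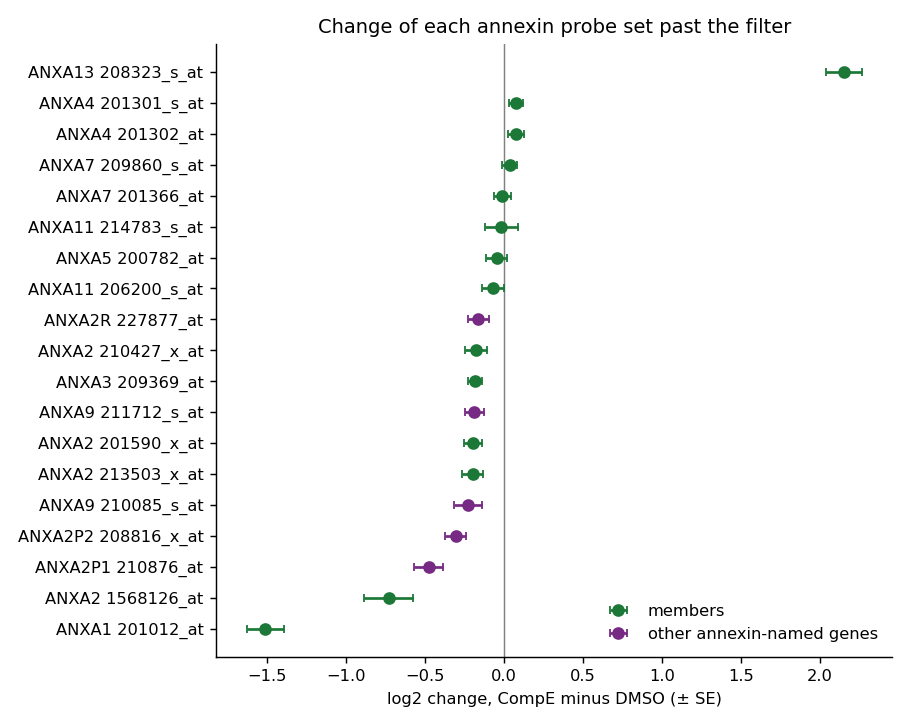
Log2 change (CompE minus DMSO) of each annexin probe set past the filter, as points with ± SE (n = 3 arrays per group), members in green and other annexin-named genes in purple. ANXA13 at 2.15 and ANXA1 at -1.51 stand at the ends, and the other 12 member probe sets lie between -0.73 and 0.08.

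By the distance between their profiles over the 6 arrays, each gene centred on its own mean, the genes nearest to ANXA13 were KLK12, a kallikrein peptidase gene (r = 0.995), RETNLB, a goblet cell secreted protein gene (r = 0.992), and LINC00261, a long non-coding RNA (r = 0.992). Those nearest to ANXA1 were CXCL8, a neutrophil chemokine gene (r = 0.998), HES1 (r = 0.995) and ADAM19, a metalloprotease gene (r = 0.991). The 6 points share 2 groups, so these coefficients mostly repeat the difference between the groups. KLK12 had intensities of 306, 308 and 267 in CompE and 76.1, 77.2 and 67.2 in DMSO. CXCL8 had 166, 190.3 and 143 in CompE and 545, 513 and 421 in DMSO.

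Proteins that work with annexins were looked up in 7 lists that hold no member. In the limma fit over all genes, 4.56% were called higher and 2.57% lower, at an adjusted p under 0.05. These shares stand beside the counts of called genes that follow. The lists were chosen with earlier results of these data known, so the comparison is not independent and nothing is read from it. The shares are no background for the counts at an unadjusted p under 0.05. For those no share over all genes was computed, so nothing is read from them. No test of a list was made. The filter, at an intensity of 24.4, lies below the Bacillus control level of 45.7, so some of the genes tested were not above background.

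The S100 family supplies small calcium-binding partners of annexins, and 2 of its members fell. Of 19 S100 genes listed, 11 passed the filter, and of these 0 rose, 2 fell and 9 did not pass (0 higher and 4 lower at an unadjusted p under 0.05). The median log2 change of the 11 was -0.16, beside 0.02 over all genes. S100A10, the light chain that joins ANXA2 into a complex at the membrane, had intensities of 1174, 1219 and 1018 in CompE and 1872, 1774 and 1799 in DMSO. The groups were clearly apart. The means were 1137 ± 106 in CompE and 1815 ± 51.0 in DMSO (SD, n = 3 each), a fall of 1.6-fold with a log2 change of -0.68 ± 0.08 (limma adjusted p = 0.0106). S100P, a calcium-binding protein that is abundant in many carcinomas, fell 1.41-fold to 3434 ± 331 in CompE, against 4842 ± 230 in DMSO (log2 change -0.50 ± 0.09, adjusted p = 0.0294). S100A11, a partner of ANXA1, had a log2 change of -0.17 (adjusted p = 0.223). S100A6, which binds ANXA11 among others, had 0.02 (adjusted p = 0.853). Both were named after their values were seen, for their link to members. Without DMSO replicate 3 the adjusted p of S100A10 was 0.0501. The call of S100P outlasted the omission of CompE replicate 2 alone, and ended on leaving out any other array (highest adjusted p 0.10, without CompE replicate 1) and with no filter on dim probe sets.

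Among proteins that annexins bind or act on, changes ran both ways. Of 14 listed, 11 passed the filter, and of these 1 rose, 2 fell and 8 did not pass, with a median log2 change of 0.04. PLA2G4A, the cytosolic phospholipase A2 that ANXA1 inhibits, had intensities of 217, 186 and 207 in CompE and 397, 421 and 452 in DMSO. Its highest CompE array lay far below its lowest DMSO array, and it fell 2.08-fold (log2 change -1.06 ± 0.08, adjusted p = 0.00283). PRKCA, a protein kinase that ANXA6 holds at membranes, had 471, 462 and 475 in CompE and 325, 326 and 350.3 in DMSO. It rose 1.41-fold (0.49 ± 0.05, adjusted p = 0.00744) on its brightest probe set. Of the 3 dimmer ones past the filter, none passed. The first gave 0.08, another gave -0.70 ± 0.34 with CompE below the Bacillus control level, and the last was below that level in both groups. SRC, the kinase that phosphorylates ANXA2, had 375, 375 and 367 in CompE and 435, 441 and 444 in DMSO. That is a fall of 1.18-fold (-0.24 ± 0.04, adjusted p = 0.0328), and the call ended on leaving out any single array (highest adjusted p 0.110). FPR1, a receptor for ANXA1, was not above background, with means of 28.6 in CompE and 23.4 in DMSO, so no fold is given. Its naming, as a receptor of a member, came after its values were seen.

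**Figure D3:**
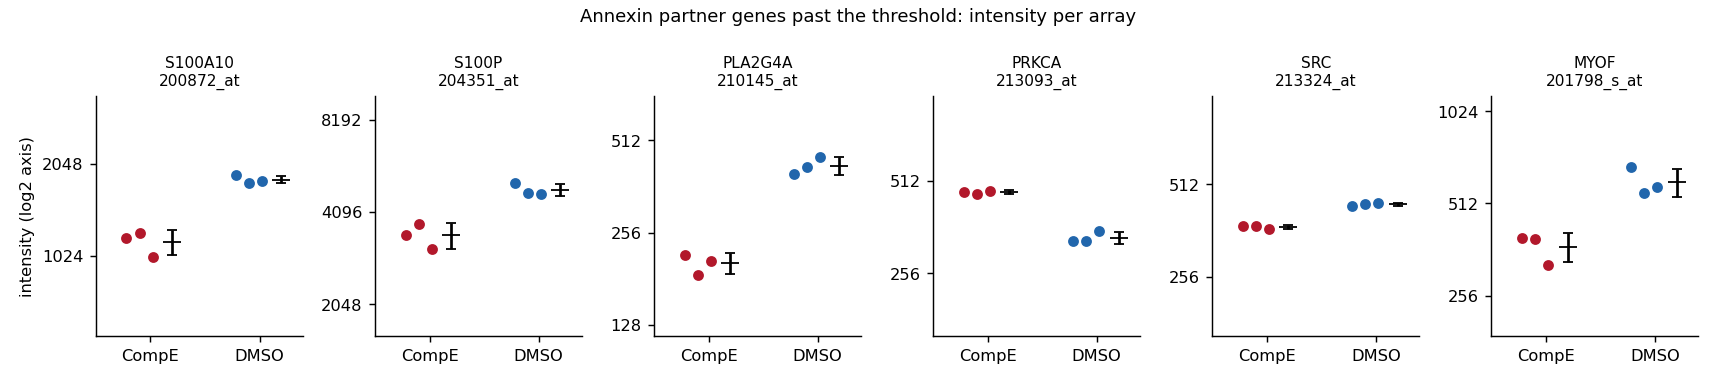
Intensity on each array (log2 axis) of the 6 genes of the S100, annexin-binding and membrane repair lists that passed the threshold, with CompE left of DMSO. Points are cultures and black marks the mean ± SD (n = 3). S100A10, S100P, PLA2G4A, SRC and MYOF are lower and PRKCA is higher in every CompE array than in any DMSO array.

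Of 15 membrane repair genes tested, 0 rose, 1 fell and 14 did not pass (0 higher and 2 lower at an unadjusted p under 0.05 in limma), with a median of -0.07. That median is the value of DYSF, which was not above background, with means of 31.2 in CompE and 33.5 in DMSO. The one that fell was MYOF, which encodes myoferlin, a ferlin that takes part in resealing the plasma membrane. It had intensities of 394, 392 and 322 in CompE and 672, 552 and 577 in DMSO, a fall of 1.63-fold (log2 change -0.70 ± 0.11, adjusted p = 0.0257). A second probe set gave -0.72. The call ended on leaving out any single array (highest adjusted p 0.0800) and with no filter on dim probe sets.

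Glucocorticoid-induced genes were listed because ANXA1 is one of them, and they moved in both directions. Of 7 tested, 1 rose, 2 fell and 4 did not pass, with a median of -0.15. DUSP1, a phosphatase gene that inactivates MAP kinases, rose 1.35-fold to 194 ± 11.7 in CompE, against 143 ± 6.30 in DMSO (adjusted p = 0.0219), although a dimmer probe set past the filter gave a log2 difference of 0.05. SGK1, a kinase gene, fell to 39.3 ± 4.37 in CompE, against 58.4 ± 3.60 in DMSO (limma adjusted p = 0.0281). Its CompE level lay below the Bacillus control level and its DMSO level 1.28-fold above it. CEBPD, a transcription factor gene, fell 1.26-fold to 898 ± 25.3 in CompE, against 1129 ± 54.0 in DMSO (adjusted p = 0.0301). The calls of DUSP1 and CEBPD ended on leaving out any single array (highest adjusted p 0.0767 and 0.101), and that of SGK1 in all cases but without CompE replicate 2 (highest 0.0959, without DMSO replicate 2).

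No gene passed in the other 3 lists. In the plasminogen system, which ANXA2 serves as a surface receptor, 0 of 7 tested passed in limma (1 higher and 2 lower at an unadjusted p under 0.05). The smallest p there belonged to SERPINE2, a protease inhibitor gene, with 937 ± 31.1 in CompE and 1113 ± 56.1 in DMSO (adjusted p = 0.0673). Of 10 genes of the scramblases and flippases that set the exposure of phosphatidylserine, the lipid ANXA5 binds, 0 passed in limma, and 0 had an unadjusted p under 0.05. XKR8, a scramblase gene, came closest at 0.16 (adjusted p = 0.220). Of 5 copines, which like annexins bind membranes when calcium rises, 0 passed in limma (1 higher and 0 lower at an unadjusted p under 0.05). CPNE7 came closest with a log2 difference of 0.22 (adjusted p = 0.173). The medians of these lists were -0.03, -0.02 and 0.00 log2 units. That of the plasminogen system is the value of PLAU, which was not above background, with means of 39.5 in CompE and 41.4 in DMSO.

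**Figure D4:**
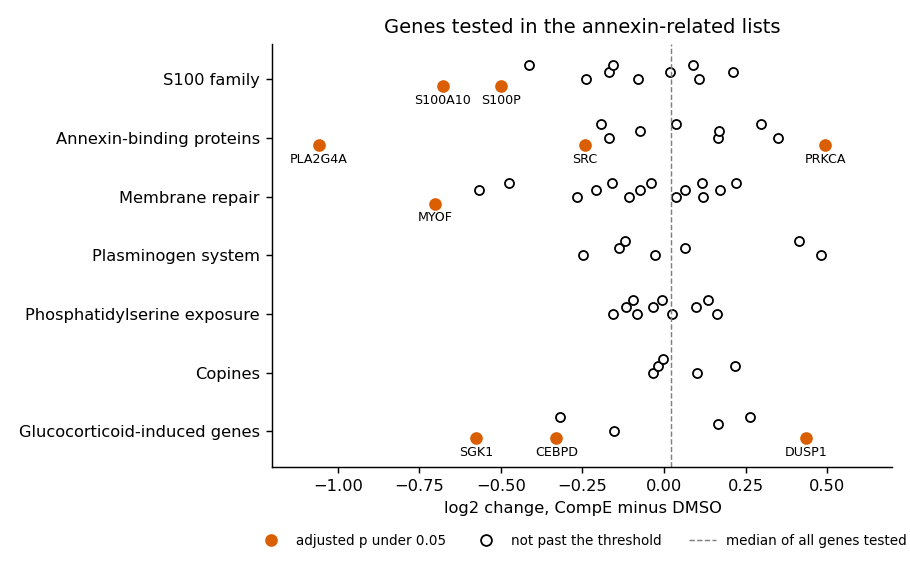
Log2 change (CompE minus DMSO) of every gene tested in 7 annexin-related lists, 1 point per gene. Filled orange points, with names, passed the limma threshold, open points did not, and the dashed line is the median of all genes at 0.02. PLA2G4A at -1.06 lies lowest and PRKCA at 0.49 highest.

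ANXA13 was higher and ANXA1 lower under every alternative that gave them a value. Their log2 changes ranged from 2.01 to 2.24 and from -1.66 to -1.41. Since both were chosen on this contrast, that is no sign of stability. Centring on the hybridisation controls shifted the median over all genes to -0.12, against 0.02 as reported. ANXA4 and ANXA7 then turned from small positive to small negative values, both above that median.

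**Figure D5:**
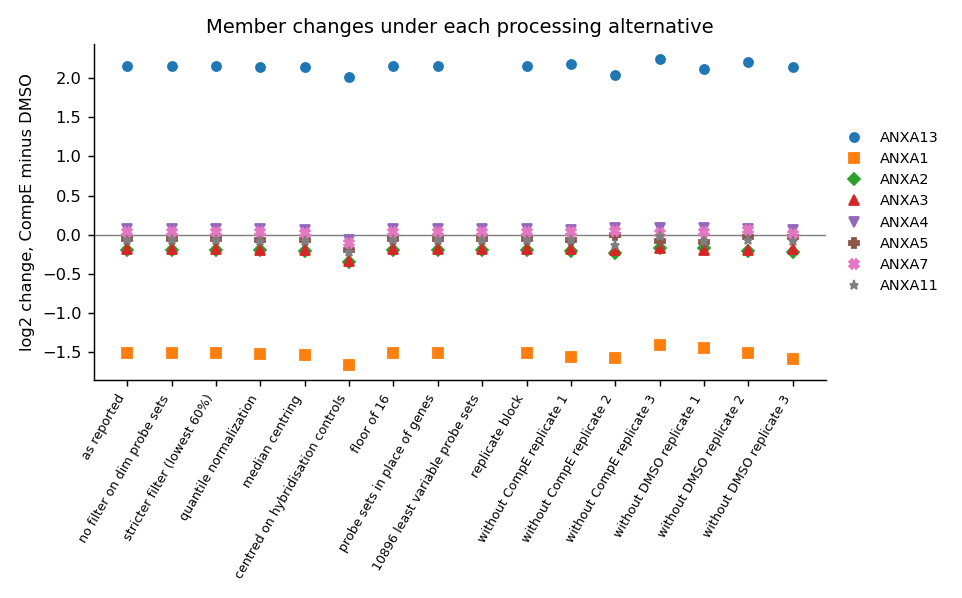
Log2 change (CompE minus DMSO) of 8 annexin members as reported and under 15 processing alternatives along the horizontal axis, 1 marker shape per gene. ANXA13 stays between 2.01 and 2.24 and ANXA1 between -1.66 and -1.41, and both are missing among the 10896 least variable probe sets, which do not hold theirs.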

How the data were processed

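RNA of 6 LS174T cultures was measured on Affymetrix arrays, 1 per culture. Per the series design text, the authors scaled the 6 arrays with dChip and deposited linear probe set intensity values. For the dChip version and model: not given in the sources used here. Values under 1 were set to 1 and log2 was taken (0.768% to 0.902% of an array's values lay under 1). The 62 control probe sets and the lowest 40% by mean log2 (under an intensity of 24.4) were left out. Gene names came from the 2016 platform annotation, updated by Entrez identifier; probe sets of several genes were not tested. The probe set with the highest mean stood for its gene, which gave 14308 genes. CompE was compared with DMSO with limma 3.58.1 in R 4.3.3 (lmFit, eBayes, two-sided, no covariate, Benjamini-Hochberg over all genes, threshold 0.05). "Did not pass" means an adjusted p of 0.05 or more. The SE of a second probe set comes from the same fit over 26962 probe sets. With 3 arrays per group as the limit on precision, the median SE was 0.08 log2 units. Tested on simulated data for CompE against DMSO (14308 genes), the fit recovered 6% of changes of 0.25, 58% of 0.5, 78% of 1 and 90% of 2 log2 units. The simulation changed 50 genes per size, a smaller share than the 7.14% of genes called in the data. The adjustment depends on that share, so recovery in the data can differ.

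The members and the lists were chosen with earlier results of these data known, and the promoter motifs after the member values were seen. Named genes were all members, other annexin symbols, up to 4 called genes per list (or the one with the smallest p), the 3 nearest profiles to ANXA13 and ANXA1, and HES1, OLFM4 and ATOH1 as treatment checks. OLFM4 was at 316 ± 17.5 in CompE and 1923 ± 105 in DMSO, and ATOH1 at 574 ± 53.7 in CompE and 94.1 ± 13.2 in DMSO (SD, n = 3 each).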

Additional observations from a re-analysis of the deposited data

How the results depend on the processing

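Of 118 member values under 15 alternatives, 110 kept their direction and side of the threshold, 6 newly passed and 2 reversed: centred on the hybridisation controls, ANXA4 was at -0.067 and ANXA7 at -0.11. The members were chosen on this contrast, so these counts support nothing. As reported, 1 member was called higher and 1 lower. Members called lower numbered 2 with the stricter filter (lowest 60%), 4 centred on the hybridisation controls and 2 among the 10896 least variable probe sets, where 0 were called higher because the probe sets of ANXA13 and ANXA1 are not in that set. Over the annexin-related lists, including other annexin symbols, 2 genes were called higher and 9 lower, where 4.56% and 2.57% of all genes were. The genes tested were 4 other annexin symbols, 11 S100 genes, 11 annexin-binding proteins and 15 membrane repair genes. To these came 7 of the plasminogen system, 10 of phosphatidylserine exposure, 5 copines and 7 glucocorticoid-induced genes. The 9 include ANXA2P1 and ANXA2P2, whose signal cannot be told apart from that of ANXA2. Called higher and lower were 1 and 2 with no filter and 1 and 22 centred on the hybridisation controls. Among the least variable probe sets they were 8 and 15, and 4 were higher with the stricter filter. The genes tested in all numbered 14308 as reported, 19775 with no filter, 10843 with the stricter filter and 6858 among the least variable probe sets. How many listed genes each setting kept was not counted, so these counts are not read as a result about the lists. With no filter, PLA2G4A, S100A10 and PRKCA were still called and the other 8 of these 11 were not. The calls of ANXA2P1, ANXA2P2 and SRC also ended with probe sets in place of genes, that of ANXA2P2 with median centring and that of DUSP1 on the hybridisation controls. With 1 array left out, 1 was higher each time (lowest and highest 1) and 1 to 5 were lower. Over all genes, 1021 were called as reported, 363 with no filter, 1751 with the stricter filter and 249 to 517 with 1 array left out. Among the least variable probe sets 2920 of 6858 genes were called. That set was picked for its low spread within groups, the same spread that the test uses. Its counts, also those of members and lists above, can therefore not be set beside the others. Centred on the hybridisation controls 1892 genes were called, of which 18.0% were higher, against 64.0% as reported. The causes of the other differences between settings were not tested. With the replicate block, 102 genes were called, of which 0 of the listed genes were higher and 1 lower. Same-numbered arrays correlated at -0.10 to 0.02 in their deviations from the group means, and 1 of 6 correlated best with its own number. That gives no sign that the shared numbers pair the cultures. It cannot exclude pairing, because deviations from a mean of 3 arrays are tied to each other. With 3 arrays a group, and signal near the Bacillus control level for ANXA13 in DMSO, small changes and dim members could not be resolved.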
